A study of Mus musculus with 19 samples.

Results

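The cathepsins described here are 9 protease genes, Ctsa, Ctsb, Ctsc, Ctsd, Ctsf, Ctsh, Ctsl, Ctss and Ctsz, taken by symbol wherever a table held them. All 9 were among the 6376 genes measured in astrocytes and the 3067 measured in microglia, and 8 were among the 3776 measured in monocytes, where Ctsf was not analysed here. Transcripts were counted at their 3′ ends (3′ digital gene expression) in 19 libraries of cells sorted from the central nervous system of female wild type C57Bl/6 mice at P85. All of the mice had experimental autoimmune encephalomyelitis (EAE), an induced autoimmune inflammation of the central nervous system, raised with a peptide of myelin oligodendrocyte glycoprotein (MOG) in complete Freund's adjuvant. Before that, a lentivirus had been delivered intracranially, either pLenti-Gfap-GFP-shXbp1, with a hairpin against Xbp1, or pLenti-Gfap-GFP-shScramble, with a scrambled hairpin that the sample names shorten to shScrmbl.

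The libraries comprised astrocytes from 4 shXbp1 and 4 shScrmbl mice, microglia from 3 shXbp1 and 4 shScrmbl mice, and monocytes from 2 shXbp1 and 2 shScrmbl mice. The virus is driven by the promoter of Gfap, an astrocyte gene, in every group, so the microglia and monocytes are cells of mice in which the hairpin was aimed at astrocytes. The labels do not name the antibodies or say whether GFP was used as a gate. There was no group without EAE or without virus.

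Cathepsins cut proteins inside endosomes and lysosomes. They are made in the endoplasmic reticulum as inactive precursors, carried to lysosomes largely by receptors for mannose 6-phosphate, and activated there by acid and by other proteases. In microglia and monocytes they break down ingested material and trim the invariant chain and antigens for presentation on MHC class II. The product of Xbp1, a transcription factor made when unfolded proteins build up, adjusts the capacity of the endoplasmic reticulum to fold and export such proteins.

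The 9 genes fall into a few kinds by the cut they make. Ctsb, Ctsl, Ctss and Ctsf are cysteine proteases of the papain family that cut within proteins, and Ctsb can also take dipeptides from the C-terminal end. Ctsc, Ctsh and Ctsz belong to the same family and mainly trim ends: Ctsc removes dipeptides from the N-terminal end and activates serine proteases of granules, Ctsh is an aminopeptidase, and Ctsz is a carboxypeptidase. Ctsd is an aspartic protease that cuts within proteins. Ctsa is a serine carboxypeptidase that also protects the lysosomal enzymes Neu1 and Glb1 in a complex.

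The promoters of Ctsd, Ctsa and Ctss are printed because the microglial values of these genes lay lower in shXbp1 than in shScrmbl libraries, without overlap in signal for Ctsd and Ctsa and in CPM (counts scaled to equal library totals) for Ctss. RefSeq promoters on GRCm38.p6, which span 250 bases before to 50 bases after a start, were found for 7 of the 9 genes, all but Ctsb and Ctsh. Capitals mark the E-box CACGTG, which reads the same on both strands, and the ETS motif AGGAAGT, in either direction (ACTTCCT on the other strand). Each sequence is written 5′ to 3′ on the strand of its gene.

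Ctsd, chr7:142387778-142388077, minus strand: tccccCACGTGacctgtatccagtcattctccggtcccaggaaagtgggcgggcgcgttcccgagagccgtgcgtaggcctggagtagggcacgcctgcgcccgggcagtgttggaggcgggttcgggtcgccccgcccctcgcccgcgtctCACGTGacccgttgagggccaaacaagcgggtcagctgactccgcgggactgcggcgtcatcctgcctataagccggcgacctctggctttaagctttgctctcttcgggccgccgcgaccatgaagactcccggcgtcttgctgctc

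Ctsa, chr2:164833523-164833822, plus strand, the downstream start of a pair: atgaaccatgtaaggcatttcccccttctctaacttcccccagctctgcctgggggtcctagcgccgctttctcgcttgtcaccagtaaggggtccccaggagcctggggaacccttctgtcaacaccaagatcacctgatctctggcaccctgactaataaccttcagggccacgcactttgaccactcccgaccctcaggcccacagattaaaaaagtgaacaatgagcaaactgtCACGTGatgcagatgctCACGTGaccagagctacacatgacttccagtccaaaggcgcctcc

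Ctss, chr3:95526536-95526835, plus strand: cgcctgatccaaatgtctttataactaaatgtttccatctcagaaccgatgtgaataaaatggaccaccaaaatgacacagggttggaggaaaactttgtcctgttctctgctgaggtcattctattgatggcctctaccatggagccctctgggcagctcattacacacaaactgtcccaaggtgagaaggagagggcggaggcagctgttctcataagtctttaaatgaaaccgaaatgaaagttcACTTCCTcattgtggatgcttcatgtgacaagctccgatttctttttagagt

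The E-box stood at 245 and 98 bases before the start in Ctsd (positions -245 and -98), and at -12 and 6 in the downstream Ctsa promoter. It also stood at -79 in Ctsf and at -236 in Ctsl, which gave 4 of the 7 genes, against 7.15% of 32851 RefSeq promoters of the same length. The longer CLEAR element of lysosomal genes, which contains the E-box, was searched in a single form, without mismatches. No exact match to that form was in the 7 genes' windows, and 0.326% of all promoters held it. Forms of the element that differ from it were not searched, so whether these windows hold such forms was not tested. The ETS motif was at -2 in Ctss and at -151 in Ctsc, and 9.35% of all promoters held it. Ctss also held TATAAA, as did 13.6% of all promoters (TTTATA on the other strand). The matches describe letters in these windows and say nothing of binding.

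Counts were totalled over the genes measured in each cell type, and by these totals the libraries were shallow. The totals ran from 32842 to 302003 counts in astrocytes, from 10039 to 122002 in microglia and from 15654 to 112676 in monocytes. In microglia the shXbp1 libraries held 10039, 13321 and 46586 counts, against 17892, 92765, 122002 and 25821 in shScrmbl libraries, and in monocytes 15654 and 56625 counts in shXbp1 against 74340 and 112676 in shScrmbl. The authors' unit, a signal scaled to like totals within a table, therefore gave a single count a value between 4.22 and 76.0. Xbp1 itself averaged 49.5 ± 22.3 in shXbp1 and 49.8 ± 30.3 in shScrmbl astrocytes (signal, SD, n = 4 each), on 28 and 22 counts, and did not differ by limma (adjusted p = 0.966). Microglial Xbp1 rested on 2 counts in shXbp1 and 16 in shScrmbl libraries, and monocyte Xbp1 on 12 and 29. Gfap was not analysed here, the astrocyte markers Slc1a2 and Aqp4 were measured in astrocytes alone, and the choroid plexus transcript Ttr had a signal of 126561 to 246663 in shXbp1 and 198317 to 269928 in shScrmbl astrocyte libraries. Microglial markers were also present in the astrocyte libraries, with all 16 of the list measured. They summed to 1967 to 2642 in shXbp1 and 1725 to 5706 in shScrmbl libraries. The 15 astrocyte markers measured summed to 2967 to 5197 in shXbp1 and 2825 to 4473 in shScrmbl libraries. Choroid plexus markers (9 of 10 measured) summed to 150096 to 275311 in shXbp1 and 212382 to 311292 in shScrmbl libraries. Astrocyte levels below are of these libraries as sorted, and the part of other cells in them was not tested. Counts from bulk samples cannot tell fewer cells of a type from less RNA per cell.

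Across cell types, the family was a small part of the astrocyte libraries and a large part of the microglial ones. Cathepsin counts made up 0.523% to 0.703% of counts in shXbp1 and 0.491% to 1.56% in shScrmbl astrocyte libraries, 3.23% to 3.78% in shXbp1 and 4.61% to 5.46% in shScrmbl microglia, and 1.89% to 2.54% in shXbp1 and 3.18% to 3.64% in shScrmbl monocytes. A share of counts does not depend on the authors' scaling. Its total covers only the genes measured in that cell type (6376, 3067 and 3776), so shares across cell types have unlike bases. The signals were scaled within each cell type's own table, so levels set across cell types below are descriptions without a test. Because transcripts were counted at their 3′ ends, levels of different genes are compared as they stand, without division by transcript length. Whether counts are reads or molecules is not given, so these comparisons are approximate.

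**Figure D1:**
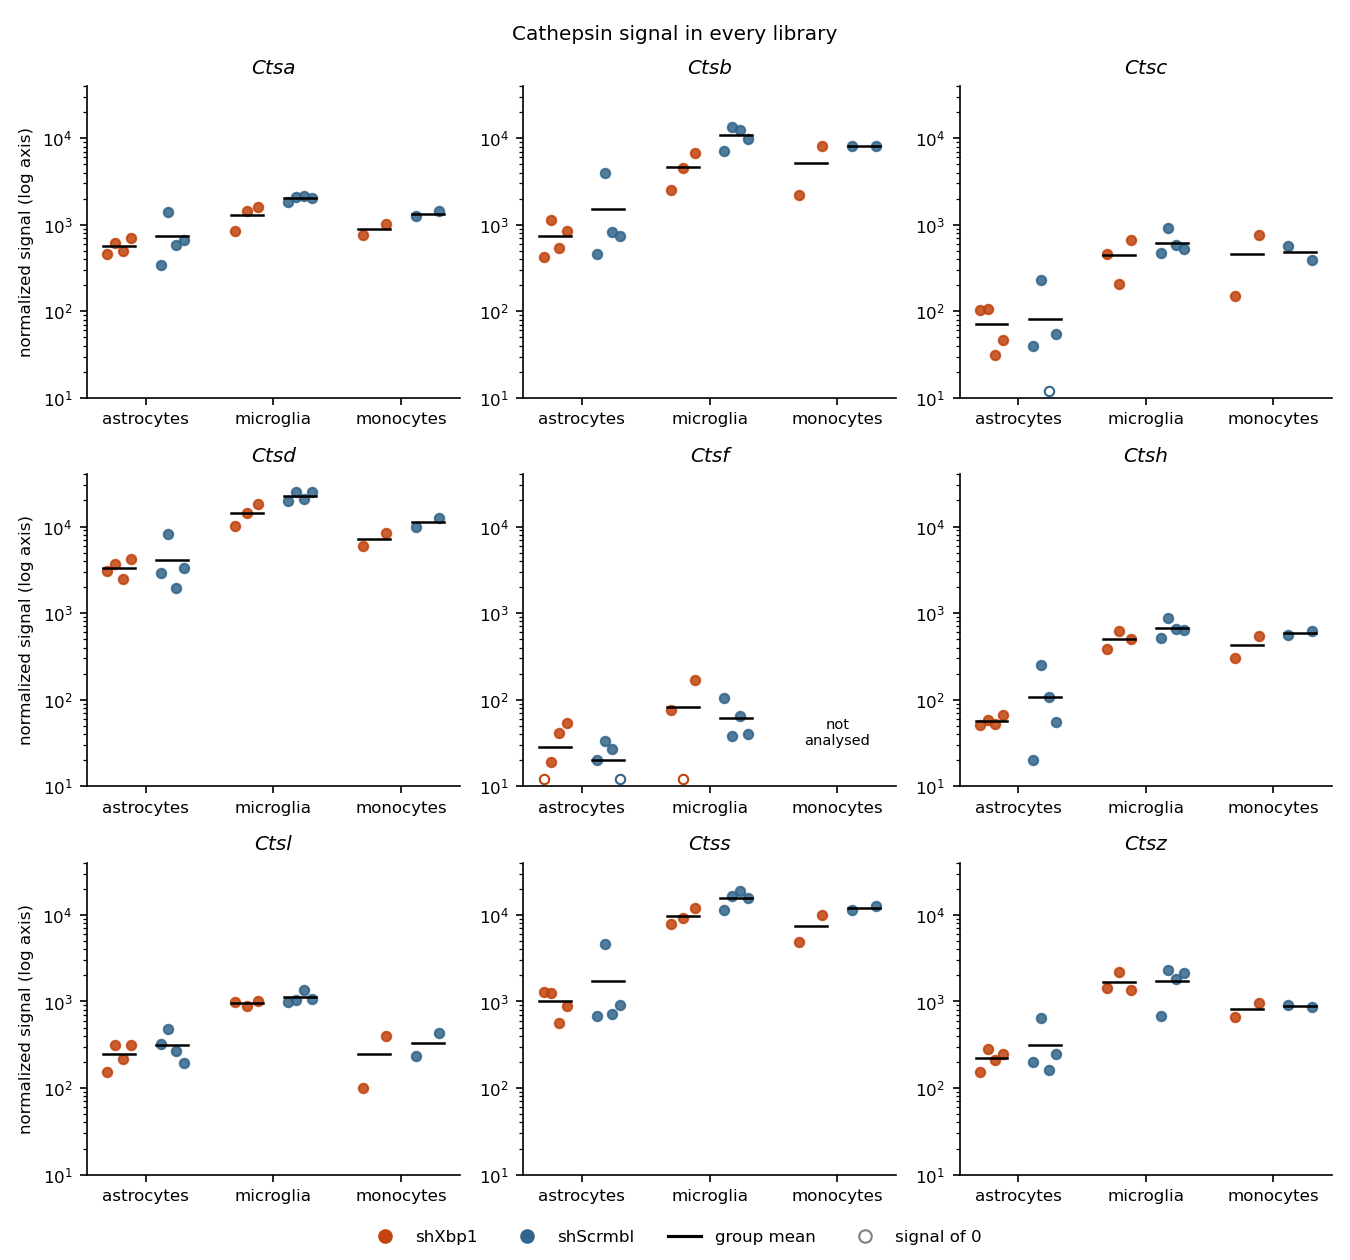
Normalized signal (log axis) of each of the 9 cathepsins in every library, by cell type, with shXbp1 libraries left of shScrmbl libraries and replicates in number order; black bars are group means and open points are signals of 0. Ctsd, Ctss and Ctsb are the highest in all 3 cell types, and astrocyte shScrmbl replicate 2 stands above the other astrocyte libraries for most genes (3981 for Ctsb).

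The same 3 genes, Ctsd, Ctss and Ctsb, led the family in every cell type by mean signal. In microglia Ctsd averaged 19053 ± 5447, Ctss 13006 ± 4065 and Ctsb 8105 ± 4074 (signal, SD, n = 7). Ctsd ranked between the 3rd and the 6th most abundant of the 3067 genes in every microglial library, Ctss between the 6th and the 9th, and Ctsb between the 10th and the 33rd. In monocytes Ctss was at 9746 ± 3499.9, Ctsd at 9259 ± 2788 and Ctsb at 6631 ± 2938 (n = 4), means that lie within 1 SD of each other. In astrocytes Ctsd stood apart from the rest at 3730.3 ± 1939, followed by Ctss at 1363 ± 1329 and Ctsb at 1117 ± 1180.2 (n = 8), which lay within their spread of each other.

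The remaining genes were lower. In microglia Ctsa (1707 ± 465) and Ctsz (1705 ± 587) were level within their spread, above Ctsl (1049.7 ± 142), and Ctsh (599 ± 155) and Ctsc (544 ± 215) were again within their spread of each other. Ctsf was the lowest at 70.1 ± 54.1, on 21 counts over 7 libraries. Monocytes kept Ctsa (1113 ± 294) and Ctsz (851 ± 134) ahead, while Ctsh (509 ± 142), Ctsc (467 ± 257) and Ctsl (291 ± 152) followed within their spread of their neighbours. In astrocytes Ctsa was at 658 ± 325, Ctsl at 282 ± 100.2, Ctsz at 267 ± 157, Ctsh at 82.2 ± 71.4, Ctsc at 76.1 ± 70.7 and Ctsf at 24.3 ± 18.7, the last on 26 counts.

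The makeup of the family differed between the cell types in every library for some pairs of genes. Ctsl, set against Ctss of the same library, had a signal 0.104 to 0.471 times that of Ctss in astrocytes, 0.0625 to 0.127 times in microglia and 0.0208 to 0.0401 times in monocytes. The monocyte range did not meet the microglial range, and the astrocyte range met it at 2 libraries, shXbp1 replicate 1 (0.118) and shScrmbl replicate 2 (0.104). Ctsa stood at 0.307 to 0.889 times Ctss in astrocytes, 0.108 to 0.161 times in microglia and 0.101 to 0.158 times in monocytes, so that the astrocyte libraries lay above both other types. Ctsd was 1.79 to 4.64 times Ctss in astrocytes, 1.13 to 1.76 times in microglia and 0.852 to 1.24 times in monocytes.

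As a share of cathepsin counts, Ctsd held a median of 53.5% in astrocytes, 42.8% in microglia and 32.0% in monocytes. Ctss held 15.1%, 27.5% and 33.6% in the same order of cell types, and Ctsb 11.8%, 16.6% and 23.1%. Ctsa held 8.81%, 3.64% and 3.82%, and Ctsl 4.25%, 2.31% and 0.933%. Shares add up to the whole in each library, so a higher share of Ctss is in part a lower share of Ctsd.

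**Figure D2:**
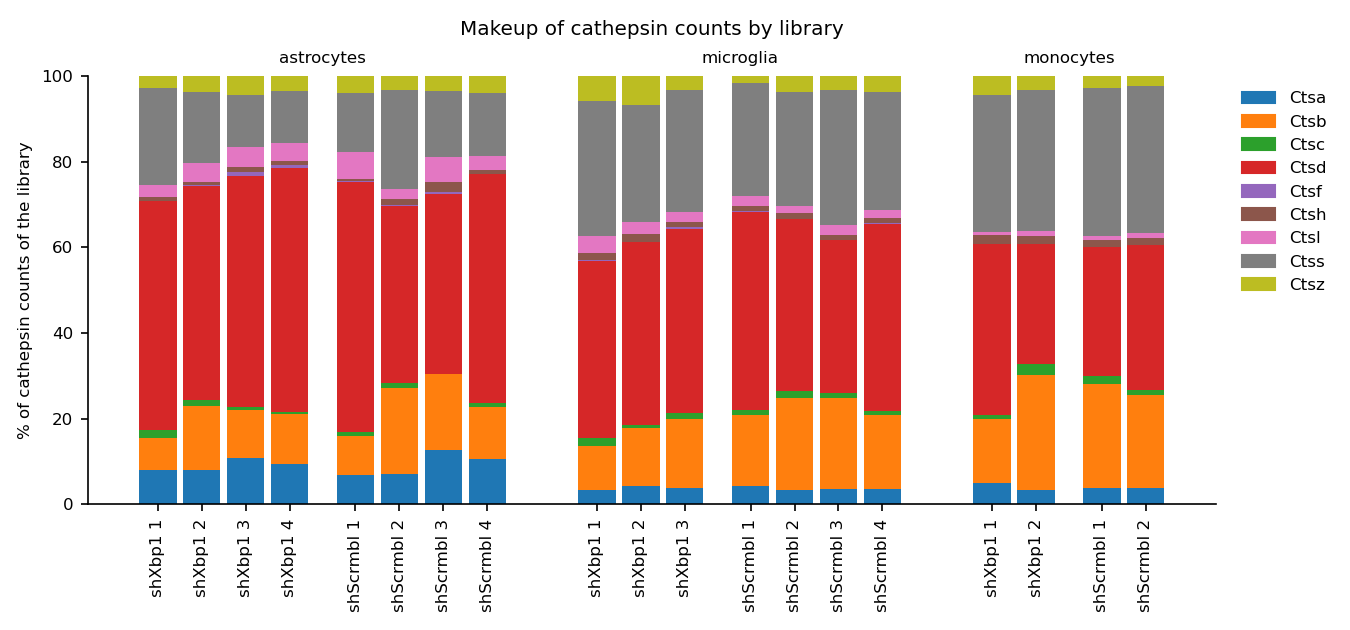
Share of each cathepsin among the cathepsin counts of each library (%), stacked to 100, with shXbp1 libraries left of shScrmbl libraries within each cell type. Ctsd takes a median of 53.5% in astrocytes and 32.0% in monocytes, and Ctss 15.1% and 33.6%.

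The comparison of hairpins asks whether cathepsin transcripts differ when Xbp1 is targeted in astrocytes. In microglia, Ctsa, Ctsb and Ctsd had lower values in every shXbp1 library than in every shScrmbl library, while the other 6 genes overlapped between the groups. Ctsb differed the furthest of these 3, with a shXbp1 mean 0.428 times the shScrmbl mean. Ctsd, Ctss and Ctsa had means between 0.619 and 0.637 times those of shScrmbl libraries. Ctsz and Ctsl differed little beside their spread. No cathepsin passed the test over the 3066 genes fitted (limma on log2(signal + 1), Benjamini-Hochberg adjusted p under 0.05), and neither did any other gene, a background of 0%. edgeR called 0.391% of the genes and DESeq2 0%, and no cathepsin among them.

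Ctsb in microglia had a signal of 2508, 4484 and 6799 in shXbp1 libraries, against 7111, 13603, 12546 and 9680.0 in shScrmbl libraries. Every shXbp1 library lay below every shScrmbl library, though the nearest, 6799 and 7111, were close. The counts behind these values were 33, 65 and 284 in shXbp1, against 137, 1078, 1344 and 242 in shScrmbl. The means were 4597 ± 2148 (SD, n = 3) in shXbp1 and 10735 ± 2929.8 (n = 4) in shScrmbl, a log2 difference of -1.29 ± 0.33 (SE) with a 95% interval of -1.97 to -0.62. Its unadjusted limma p of 0.000474 was the smallest of the 3066 genes, with an adjusted p of 0.653. edgeR's quasi-likelihood test on the counts gave -1.21, the 18th smallest p and an adjusted p of 0.155.

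Whether Ctsb passed depended on the setting. Of the 15 alternatives without a replicate block it passed in 3, with values from -1.63 to -0.85 and adjusted p from 0.0193 to 0.913 over the 15. These were quantile normalization (-0.85, adjusted p = 0.0320 in limma), CPM of the library total (-1.09, adjusted p = 0.0435 in limma) and leaving out shScrmbl replicate 1 (-1.48, adjusted p = 0.0193 in limma). With edgeR, leaving out shScrmbl replicate 1 gave -1.39 (adjusted p = 0.0210), leaving out shXbp1 replicate 3 gave -1.62 (adjusted p = 0.0370), and the other 5 omissions gave adjusted p of 0.171 or more.

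Ctsb was also a smaller part of the family in shXbp1 microglia. It made up 10.2%, 13.5% and 16.1% of cathepsin counts in shXbp1 libraries, against 16.6%, 21.6%, 21.3% and 17.2% in shScrmbl libraries. These groups did not overlap either. The exons of Ctsb share 3′ sequence with Fdft1 on the opposite strand, and the strand setting of the counting is not given in the sources used here. Fdft1 reached at most 138 in microglia and at most 0.0308 times the Ctsb signal of the same library, and in astrocytes at most 156 and 0.24 times.

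Ctsd had a signal of 10183, 14212 and 18124 in shXbp1 microglia, against 19828, 25237, 21069 and 24720.0 in shScrmbl microglia. The groups did not overlap. The means of 14173 ± 3970.3 and 22714 ± 2673 gave a log2 difference of -0.71 ± 0.27 (SE), with a 95% interval of -1.27 to -0.16 and an adjusted p of 0.804 in limma and 0.905 in edgeR. Its share of cathepsin counts overlapped between the groups, at 41.4% to 43.0% in shXbp1 and 35.8% to 46.4% in shScrmbl. Exons of Ctsd overlap those of Gm49369 on the same strand, so that counts in the shared part cannot be told apart. The last 300 bases of the longest Ctsd transcript matched no other gene.

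Ctss, the protease that finishes the cutting of the invariant chain in antigen-presenting cells, had a signal of 7752, 9107 and 11995 in shXbp1 microglia, against 11264, 16745, 18660.5 and 15520.0 in shScrmbl microglia. shXbp1 replicate 3 lay above shScrmbl replicate 1, so the groups overlapped in signal. In CPM the same groups did not overlap, at 9909 to 10754 in shXbp1 and 12128 to 16385 in shScrmbl. The log2 difference was -0.69 ± 0.29 (SE), with an adjusted p of 0.804 in limma and 0.899 in edgeR.

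Ctsl, the remaining abundant endopeptidase, was level: 988, 897 and 1006 in shXbp1 microglia and 986, 1047, 1344 and 1080.0 in shScrmbl microglia. The log2 difference of -0.20 had a 95% interval of -0.93 to 0.53. That interval includes the difference of Ctsd as well as 0. Ctsf rested on 8 counts in shXbp1 and 13 in shScrmbl libraries and was at 0 in shXbp1 replicate 2, and its log2 difference was -1.30 in limma and 0.95 in edgeR.

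Among the exopeptidases, Ctsa had a signal of 836, 1449 and 1580.1 in shXbp1 microglia, against 1817, 2082, 2147 and 2040.0 in shScrmbl microglia. Its groups did not overlap, and the shScrmbl libraries lay close together. The log2 difference was -0.70 ± 0.35 (SE), with a 95% interval of -1.42 to 0.02 and an adjusted p of 0.804 in limma and 0.953 in edgeR. Exons of Ctsa overlap those of Pltp and Neurl2 on the opposite strand, and Pltp reached at most 0.294 times the Ctsa signal of the same astrocyte library. Ctsh was at 380.0, 621 and 503 in shXbp1, against 519, 871, 663 and 640.0 in shScrmbl, and Ctsc at 456, 207 and 670.4, against 467, 909, 579 and 520.0 in shScrmbl. Both overlapped between the groups, with log2 differences of -0.43 and -0.58.

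Ctsz was the member without a lower mean on the log scale. It had 1444, 2208 and 1341 in shXbp1 microglia, against 675, 2309, 1839 and 2120.0 in shScrmbl microglia. The low shScrmbl value was replicate 1, on 13 counts. The log2 difference was 0.05 ± 0.40 (SE), and without shScrmbl replicate 1 it was -0.36.

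**Figure D3:**
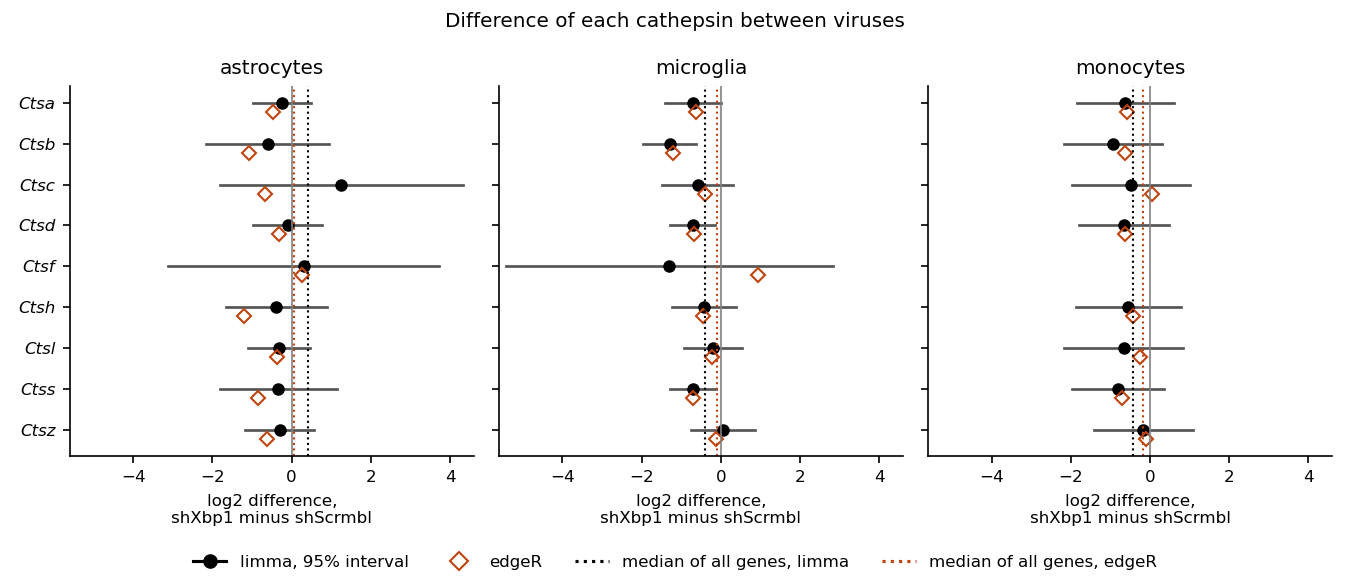
Log2 difference, shXbp1 minus shScrmbl, of each cathepsin in each cell type: black points with 95% intervals from limma on log2(signal + 1), open diamonds from edgeR on counts, dotted lines at the median over all genes in each fit. Microglial Ctsb (-1.29), Ctsd (-0.71) and Ctss (-0.69) have intervals below 0, and no cathepsin passed after adjustment.

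Set against all genes, 3 of the 9 cathepsins (Ctsa, Ctsb and Ctsd) had shXbp1 microglia wholly below shScrmbl microglia, where 4.92% of the 3066 genes did. None lay wholly above, where 2.32% of genes did. Among the 266 genes with a mean signal of at least 500, where all 3 belong, the share was 7.14%. Ctsb, Ctsd and Ctss had an unadjusted limma p under 0.05 with lower values in shXbp1, as did 4.76% of all genes. By edgeR this held for Ctsb alone, where 4.04% of genes did so. A log2 difference below 0 was found for 8 of 9 cathepsins and 65.5% of all genes in limma, and for 8 of 9 and 55.4% in edgeR. The median difference of the 9 was -0.69, beside -0.39 for all genes in limma, and -0.46 beside -0.09 in edgeR. Groups of different depth shift low genes on the log2(signal + 1) scale, and that part of the limma median was not tested.

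In total the 9 genes had a summed signal of 24622.5, 33185 and 42185 in shXbp1 microglia, against 42770.1, 62841, 58913 and 56360 in shScrmbl microglia. As a share of counts they took 3.23%, 3.61% and 3.78% in shXbp1, against 4.61%, 5.37%, 5.17% and 5.46% in shScrmbl. The nearest libraries had exact 95% binomial intervals of 3.61% to 3.96% in shXbp1 and 4.30% to 4.92% in shScrmbl, which cover counting error only. Neither the sums nor the shares overlapped.

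Markers of monocytes and macrophages were also lower on average in shXbp1 than in shScrmbl microglia. Of the 18 listed markers 17 were measured. All 17 had log2 differences below 0, beside 65.5% of all genes in limma and 55.4% in edgeR. The median edgeR difference of the 17 was -1.34, beside -0.09 for all genes, and edgeR called 3, beside 0.391% of all genes. The summed signal of the 17 was 2584, 10349 and 5770 in shXbp1, against 6540.1, 28960, 20556 and 9880.0 in shScrmbl. The groups overlapped at shXbp1 replicate 2, a library that lay below every shScrmbl library in summed cathepsin signal. Of the defining genes, Ly6c2 was at 0 in 3 of 7 libraries and no higher than 88.3, and Ccr2 was at 0 in 2 and no higher than 177. The 16 microglial markers summed to 12557 to 20350 in shXbp1 and 13807 to 20120 in shScrmbl, and 7 neutrophil markers to 414 to 1139.9 in shXbp1 and 882 to 952 in shScrmbl. Of the 16 microglial markers, 7 were below 0 in limma and 3 in edgeR, beside 65.5% and 55.4% of all genes. Their median edgeR difference was 0.28, beside -0.09 for all genes. Tmem119 was at 483 to 836 in shXbp1 and 156 to 495 in shScrmbl, and P2ry12 at 552 to 1029 and 205 to 986. Summed cathepsin signal was 1.46, 2.64 and 2.07 times the microglial marker sum in shXbp1 libraries, against 3.10, 4.39, 4.05 and 2.80 times in shScrmbl libraries, again without overlap. Against the monocyte and macrophage marker sum it was 9.53, 3.21 and 7.31 times in shXbp1, against 6.54, 2.17, 2.87 and 5.70 times in shScrmbl, where the groups overlapped. T, NK and B cell markers (3 of 11 measured, on 5 counts in shXbp1 and 60 in shScrmbl) summed to 0 to 95.8 in shXbp1 and 120.0 to 519 in shScrmbl, without overlap. Choroid plexus markers (4 of 10 measured) summed to 33461 to 43118 in shXbp1 and 18040 to 63844 in shScrmbl. The part of the other cells, and of depth, in the cathepsin differences was not tested.

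**Figure D4:**
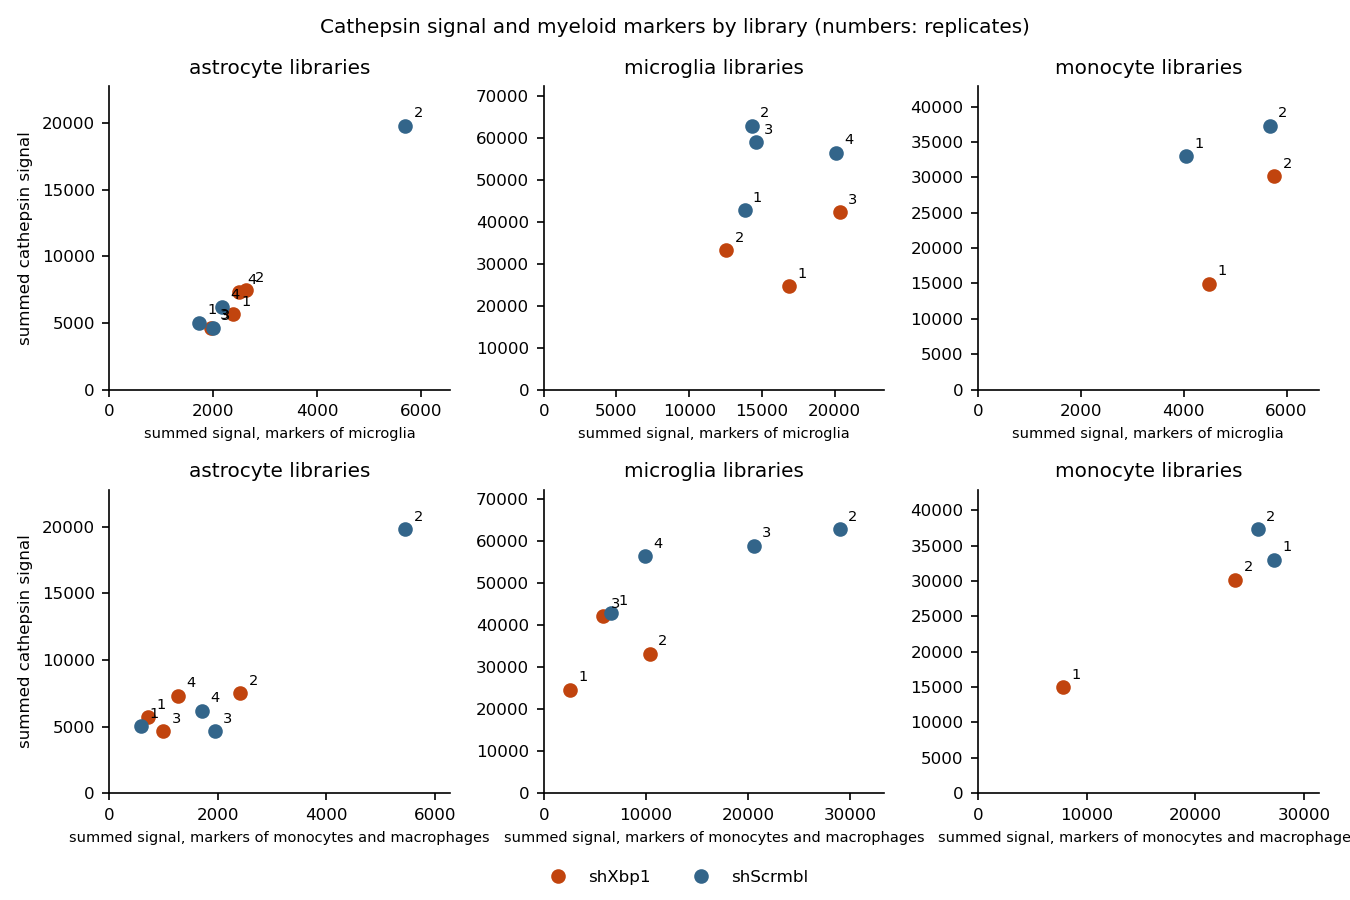
Summed cathepsin signal of each library against the summed signal of microglial markers (top) and of monocyte and macrophage markers (bottom), with a panel for each cell type and numbers giving the replicate. In microglia the shXbp1 libraries (24622.5 to 42185) lie below the shScrmbl libraries (42770.1 to 62841) in cathepsin signal, while their microglial marker sums overlap. In astrocytes shScrmbl replicate 2 is apart on both marker axes.

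In astrocytes, the cells that the Gfap promoter addresses, no cathepsin differed between the hairpins beyond the spread of the libraries. Group means were lower in shXbp1 for 8 of the 9 genes, and a single library, shScrmbl replicate 2, carried that direction. None of the 9 passed in limma (adjusted p of 0.857 or more, where 0% of 6366 genes passed) or in edgeR (0.673 or more, where 0.0157% passed). All 9 overlapped between the groups, where 0.785% of genes had shXbp1 wholly below shScrmbl and 2.37% wholly above. At an unadjusted p under 0.05, none was lower in shXbp1 in limma, as 0.55% of genes were, and Ctsh was in edgeR, as 2.91% were.

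Ctsb had a signal of 426, 1121, 531 and 843 in shXbp1 astrocytes, against 461, 3981, 825 and 745 in shScrmbl astrocytes. The 3981 of shScrmbl replicate 2 was 944 counts and stood far above the other 3 libraries of its group. Ctss had 1296, 1246, 562 and 896 in shXbp1, against 682, 4588, 719 and 910.1 in shScrmbl. Ctsd had 3036, 3734, 2509 and 4163 in shXbp1, against 2929, 8219, 1944 and 3309 in shScrmbl. In all 3 genes the same shScrmbl library was the highest, and the other libraries of both groups were interspersed.

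Ctsa had 460.5, 606, 499.6 and 697 in shXbp1 astrocytes, against 341, 1408, 586 and 662 in shScrmbl astrocytes. Ctsl was at 153, 318, 219 and 312 in shXbp1, against 321, 477, 266 and 193 in shScrmbl. Ctsz was at 153, 279, 208 and 246 in shXbp1, against 201, 641, 159.8 and 248 in shScrmbl. The highest value was again shScrmbl replicate 2 for each of these genes. Ctsh had 51.2, 57.7, 52.0 and 66.4 in shXbp1, against 20.1, 249, 107 and 55.2 in shScrmbl, with an edgeR difference of -1.21 at an unadjusted p of 0.0159 and an adjusted p of 0.673. Without shScrmbl replicate 2 that edgeR difference was -0.02. Ctsc (96 counts) and Ctsf (26 counts) were at 0 in 1 and 2 astrocyte libraries and gave limma differences of 1.25 and 0.30, which turned to -0.67 for Ctsc in edgeR.

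With all libraries, 7 of the 9 log2 differences were below 0 in limma, as were 31.8% of all genes, and 8 in edgeR, as were 46.8%. Without shScrmbl replicate 2, 1 of 9 was below 0 in limma. Ctsb was then at 0.05, Ctss at 0.31, Ctsd at 0.31 and Ctsa at 0.13. The library also had the highest sums of microglial markers, 5706 against 1725 to 2642 in the other 7 astrocyte libraries, and of monocyte and macrophage markers, 5457 against 582 to 2416 (12 of 18 measured, with Ly6c2 and Ccr2 not analysed here). Tmem119, a defining microglial gene, ranged from 27.6 to 110 over the astrocyte libraries and was at 0 in none. Its cathepsin share of counts was 1.56%, against 0.491% to 0.703% in the other 7. The part of myeloid RNA in these values was not tested.

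**Figure D5:**
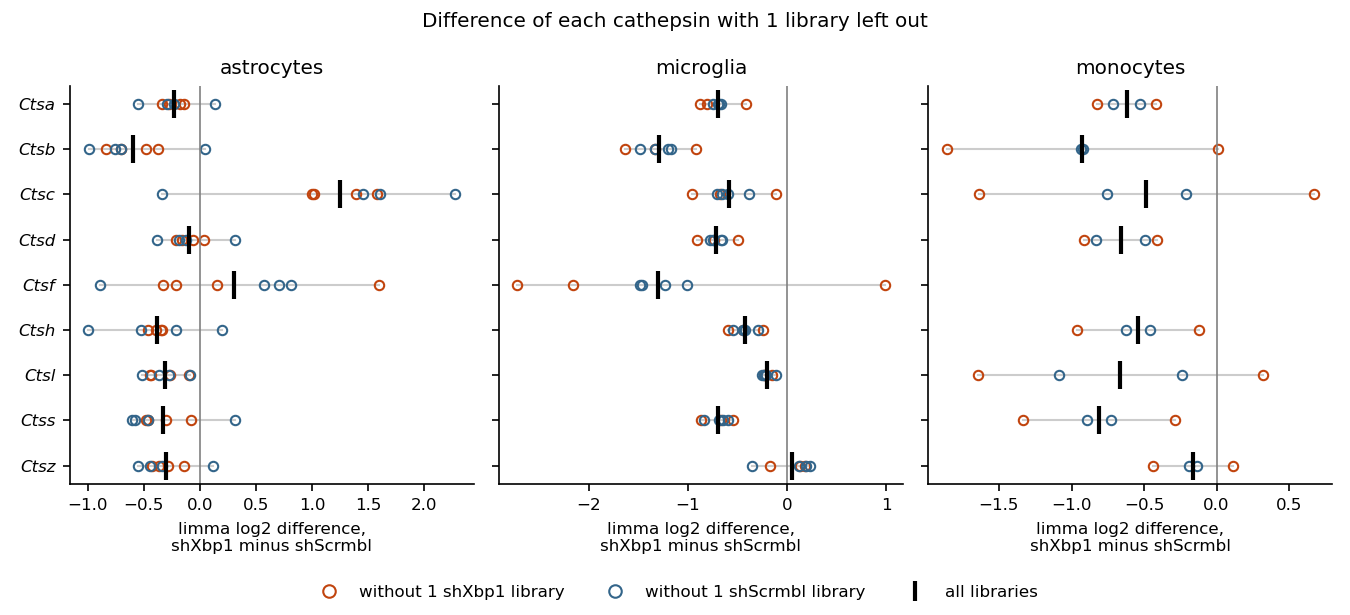
Limma log2 difference, shXbp1 minus shScrmbl, of each cathepsin with all libraries (black bar) and with a single library left out (open circles, coloured by the group of the omitted library). In astrocytes leaving out shScrmbl replicate 2 puts 8 of 9 genes above 0, and in monocytes Ctsb runs between -1.86 and 0.01.

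In monocytes all 8 measured cathepsins had a lower mean in shXbp1 than in shScrmbl libraries, and for Ctsa, Ctsd, Ctsh and Ctss both shXbp1 libraries lay below both shScrmbl libraries. With 2 libraries a group this separation was common: 25% of the 3775 genes showed it, and 13.9% of the 296 genes with a mean signal of at least 500. No cathepsin passed in limma, where 2.68% of genes did, or in edgeR, where 0.0265% did. None had an unadjusted p under 0.05 either, where 4.05% of genes did with lower values in shXbp1 in limma and 3.5% in edgeR. The 101 genes that limma called were nearly all, 99, at 0 in both shXbp1 libraries.

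Ctsd had a signal of 5966 and 8458 in shXbp1 monocytes, against 9991 and 12620.5 in shScrmbl monocytes, a log2 difference of -0.66 ± 0.56 (SE). Ctss had 4803 and 9924 in shXbp1, against 11444.5 and 12812 in shScrmbl, a difference of -0.81 ± 0.57. Ctsb had 2225 and 8123 in shXbp1, against 8035 and 8140.5 in shScrmbl. The lower Ctsb mean in shXbp1 came from replicate 1, while replicate 2 was level with the shScrmbl libraries. The limma difference of Ctsb was -0.93 ± 0.61 (SE) with an adjusted p of 0.887.

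Ctsa had 758 and 1005 in shXbp1 monocytes, against 1258 and 1429.6 in shScrmbl monocytes, and Ctsh 303 and 544, against 559 and 628 in shScrmbl. Ctsz had 657 and 963 in shXbp1, against 908 and 874 in shScrmbl. Ctsc had 152 and 754 in shXbp1, against 573 and 392 in shScrmbl, and Ctsl 101 and 398, against 238 and 428 in shScrmbl. In these last 3 genes shXbp1 replicate 1 was the lowest of the 4 libraries, on 13 counts for Ctsz, 3 for Ctsc and 2 for Ctsl.

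For Ctsb, Ctsc, Ctsl and Ctsz the lower values rested on shXbp1 replicate 1. Without it, 4 of 8 cathepsins were below 0, namely Ctsa (-0.42), Ctsd (-0.41), Ctss (-0.29) and Ctsh (-0.12), with Ctsb at 0.01, Ctsc at 0.67, Ctsl at 0.32 and Ctsz at 0.11. Leaving out shXbp1 replicate 2 leaves replicate 1 alone and takes the spread from the other group, so only sizes are given. The limma differences then included Ctsb (-1.86), Ctss (-1.33), Ctsd (-0.91), Ctsc (-1.64) and Ctsl (-1.65). The shXbp1 replicate 1 library held 15654 counts, the fewest of the monocyte libraries. Its monocyte and macrophage markers summed to 7786, against 23679 in the other shXbp1 library and 25760 to 27263 in shScrmbl (18 of 18 measured, with Ly6c2 and Ccr2 above 0 in all 4). Marker by marker, 12 of the 18 were below 0 in limma, beside 65.8% of all genes, and 11 in edgeR, beside 56.9%. Ly6c2 overlapped between the groups, at 251 to 253 in shXbp1 and 182 to 321 in shScrmbl. Ccr2 did not, at 101 to 209 in shXbp1 and 228 to 489 in shScrmbl. Neutrophil markers summed to 209 to 354 in shXbp1 and 774 to 908 in shScrmbl (8 of 11 measured, S100a8 at 0 in 1 library). Choroid plexus markers were higher in shXbp1 without overlap, at 8039 in replicate 1 and 5192 in replicate 2, against 3745 and 4826 in shScrmbl (2 of 10 measured). The single endothelial marker measured of 8, Bsg, was at 101 and 147 in shXbp1, against 97.8 and 45.5 in shScrmbl. Whether depth or the cells caught had a part in the result was not tested.

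The share of counts in monocytes was 1.89% and 2.54% in shXbp1, against 3.18% and 3.64% in shScrmbl. The exact 95% intervals of the nearest pair were 2.42% to 2.68% in shXbp1 and 3.05% to 3.31% in shScrmbl. These did not meet, but they cover counting error only and leave out the spread between mice. In limma 65.8% of all genes were below 0 beside the 8 of 8 cathepsins, and in edgeR 56.9% beside 7 of 8. The median cathepsin difference was -0.64 in limma, beside -0.42 for all genes, and -0.50 in edgeR, beside -0.17.

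Genes that act with the cathepsins were read from lists of inhibitors, sorting genes, proton pump genes and partners. In these lists limma and edgeR called no gene in astrocytes or microglia. Among 16 listed inhibitors, 4 were measured in microglia and 3 had log2 differences below 0 in both fits, beside 65.5% of all genes in limma and 55.4% in edgeR. Cst3, the secreted cystatin C that inhibits cysteine cathepsins, was the most abundant, with 4279.6 ± 1391 in shXbp1 (SD, n = 3) and 3459 ± 1165 in shScrmbl microglia (n = 4). Its difference of 0.32 was above 0 while those of Ctsb and Ctss were below, and did not pass (limma adjusted p = 0.814). In monocytes Cst3 was at 1972 and 2156 in shXbp1, against 1188 and 1457 in shScrmbl, higher without overlap, as 9.85% of genes were. In astrocytes it had 787 ± 52.6 in shXbp1 and 986 ± 152 in shScrmbl (n = 4 each).

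Of the 19 genes for sorting and activation of lysosomal enzymes, 13 were measured in microglia, of which 12 were below 0 in limma and 11 in edgeR, beside 65.5% and 55.4% of all genes. Psap, the precursor of the saposins and a binding partner of procathepsin D, was at 3724, 7727 and 6823 in shXbp1 microglia, against 6073, 15243, 12285 and 8680.0 in shScrmbl microglia. The difference of -0.78 ± 0.33 (SE) was close in size to that of Ctsd and did not pass (limma adjusted p = 0.804). Lgmn, the protease that converts several procathepsins, rested on 6 counts in shXbp1 and 24 in shScrmbl microglia. In monocytes Psap was at 3084 and 7788 in shXbp1, against 10816 and 10489.7 in shScrmbl. Laptm5, a lysosomal membrane protein of leukocytes, was level, with 1357 ± 283 in shXbp1 and 1411 ± 67.7 in shScrmbl microglia.

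Of the 16 subunits and accessory genes of the V-ATPase, the proton pump that acidifies lysosomes, 13 were measured in microglia. All 13 were below 0 in edgeR, beside 55.4% of all genes, and 11 in limma, beside 65.5%, and 3 had shXbp1 wholly below shScrmbl, as 4.92% of all genes had. Atp6v0e had a signal of 76.0, 345 and 263 in shXbp1 microglia, against 467, 454, 448 and 520.0 in shScrmbl microglia. Its difference of -1.30 ± 0.49 (SE) did not pass (adjusted p = 0.804 in limma and 0.899 in edgeR). In astrocytes 8 of 13 were below 0 in both fits, beside 31.8% of all genes in limma and 46.8% in edgeR. In monocytes 9 of 12 were below 0 in limma, beside 65.8%, and 5 of 12 in edgeR, beside 56.9%.

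Partners and substrates include Cd74, the invariant chain that Ctss cuts, and MHC class II genes that receive the peptides. In microglia 6 of the 7 measured were below 0 in both fits, beside 65.5% of all genes in limma and 55.4% in edgeR, and 2 of the 7 had shXbp1 wholly below shScrmbl, as 4.92% of all genes had. Cd74 was at 152, 276 and 359 in shXbp1 microglia, against 571, 429, 532 and 480.0 in shScrmbl microglia, without overlap. Its difference was -1.01 ± 0.44 (SE), with an adjusted p of 0.804 in limma and 0.930 in edgeR. H2-Aa was at 1064, 2829 and 3376 in shXbp1, against 3581, 5641, 6105 and 3800.0 in shScrmbl, also without overlap, with a difference of -1.10 ± 0.37 (adjusted p = 0.804 in limma and 0.444 in edgeR). MHC genes have close copies, which makes their counts uncertain.

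Of 5 other cathepsins, none was measured in astrocytes or microglia, and Ctsw and Ctsg were measured in monocytes. Ctsw, a cathepsin of T and NK cells, was level at 303 and 419 in shXbp1, against 419 and 246 in shScrmbl monocytes. Ctsg, a serine protease of neutrophil granules, had 0 counts in both shXbp1 libraries and 3 and 9 in shScrmbl libraries. Limma called it (adjusted p = 0.00622), as it did 2.68% of genes, and edgeR did not (0.922), where it called 0.0265%. Nearly all genes that limma called in monocytes were at 0 in both shXbp1 libraries. Mitf, a transcription factor of lysosomal genes, likewise had 0 counts in shXbp1 and 7 and 7 in shScrmbl. It was called by limma alone (adjusted p = 0.0145, edgeR 0.922). With 3 counts taken as the floor for the summed shXbp1 libraries, the lower bound of its fold decrease in shXbp1 was 1.80. That bound leaves out the error of the shScrmbl counts and the spread between mice. Of the other genes listed with Mitf, Mcoln1, a calcium channel of lysosomes, was at 51.2, 24.1, 52.0 and 53.1 in shXbp1 astrocytes, against 0, 21.1, 0 and 0 in shScrmbl astrocytes. These rested on 21 and 5 counts, did not overlap, as 2.37% of genes did not in that direction, and did not pass (adjusted p = 0.824 in limma and 0.753 in edgeR).

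The genes with profiles over libraries nearest to the mean profile of the 9 cathepsins were found by root-mean-square distance. Profiles were of log2(signal + 1), centred on each gene's own mean, and each cathepsin weighed the same. In astrocytes, over 8 libraries and 1694 genes, these were Rn45s (0.133), Sp110 (0.271), Pisd-ps3 (0.271), Abca1 (0.271) and Lamp2 (0.287), where the median gene was at 0.817. Rn45s, the ribosomal RNA precursor, had 1467, 2916, 1894 and 3379.7 in shXbp1 astrocytes, against 2046, 8464, 1571 and 1572 in shScrmbl astrocytes, with the same library on top. In microglia, over 7 libraries and 623 genes, the nearest included Pomp (0.165), Rpl7 (0.169), B2m (0.180) and Nme2 (0.182), where the median gene was at 0.579. B2m, the light chain of MHC class I, had 4788, 4622 and 7877 in shXbp1 microglia, against 9343, 10802, 11221 and 10560.0 in shScrmbl microglia. The distances describe these libraries, which share their depth across genes.

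On GRCm38 (GENCODE M21) the 9 protein-coding genes lie at chr2:164832873-164841032 (Ctsa, plus strand), chr14:63122462-63145923 (Ctsb, plus), chr7:88278085-88310888 (Ctsc, plus), chr7:142375911-142388038 (Ctsd, minus), chr19:4855130-4860918 (Ctsf, plus), chr9:90054152-90076089 (Ctsh, plus), chr13:64359337-64370890 (Ctsl, minus), chr3:95526786-95556403 (Ctss, plus) and chr2:174427493-174439039 (Ctsz, minus). Exons of Ctsl overlap those of Gm49230 on the same strand and Gm47123 on the opposite strand, and exons of Ctsz those of Nelfcd on the opposite strand. Apart from Ctsb and Fdft1, the last 300 bases of the longest transcript of each gene matched no other gene at 95% identity over 50 bases or more.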

How the data were processed

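The authors deposited a table of normalized signal for each cell type, each scaled on its own. In the submitters' processing notes BWA 0.7.10, limma 3.34.1 and mm10 are listed, with no roles. The counter, its annotation and its strand setting are not given in the sources used here, nor whether counts are reads or molecules. Every deposited signal divided evenly by the value of a single count in its library (100% of 45664, 18589 and 13747 values above 0 in astrocytes, microglia and monocytes, within 0.01 of a count), so the counts were recovered.

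Each cell type was fitted alone with limma 3.58.1 (trend, robust) on log2(signal + 1), shXbp1 minus shScrmbl, in R 4.3.3. Genes were kept where the number of libraries with a signal of 1 or more reached the size of the smaller group, which left 6366, 3066 and 3775 genes, and Benjamini-Hochberg adjusted p under 0.05 was the threshold. On this scale the differences of low genes depend on the pseudocount. edgeR 4.0.16 and DESeq2 1.42.0 on the recovered counts, other pseudocounts and filters, quantile normalization, a replicate block and the omission of each library were alternatives. The fit was tested on simulated data. The members, lists and tests were chosen with earlier results of these data known. Named genes are the cathepsins, up to 4 of the most abundant measured genes of each list, genes with the nearest profile, defining markers, and, chosen after their values were seen, Lgmn, Fdft1, Pltp and Bsg. A gene that the rule on profiles names is not reported here. The labels describe isolation from single mice, but do not tie replicate numbers to mice across cell types or groups, and p-values measure the spread between these libraries. No libraries were identical: chi-square per gene between libraries of a group was 1.46 to 4.91 over 23 pairs. Intervals and floors cover counting error only.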

Additional observations from a re-analysis of the deposited data

Results flagged for a closer look

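Of 27 groups of 4 libraries, each a cathepsin in a cell type and hairpin, 2 held a library far from the others, and both were in astrocyte shScrmbl replicate 2. Ctsb was 3981 there, against 461 to 825 in the other 3 shScrmbl astrocyte libraries, a gap of 0.897 of the group's range. Ctss was 4588, against 682 to 910.1, a gap of 0.942. The critical gap for 4 libraries is 0.829 (Dixon, 95%), and chance flags about 1 in 20 groups. The 9 genes of a library share its depth and its cells, so these flags are not independent. The same library had the highest microglial and myeloid marker sums of the astrocyte libraries, and their part was not tested.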

How the results depend on the processing

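Of 434 values of single cathepsins under alternatives, 393 kept their direction and their side of the threshold and 32 changed sign. Another 4, all of microglial Ctsb, newly passed. The other values came from monocyte fits with 1 library in a group, and whether they passed is not given. Under quantile normalization Ctsd and Ctsf were at 0.15 and -0.61 in astrocytes and Ctsf at 1.14 in microglia. Astrocyte Ctsc was -0.67 in edgeR, -0.51 in DESeq2 and -0.17 with a replicate block in edgeR. Microglial Ctsf was 0.95 in edgeR, 0.73 in DESeq2 and 0.64 with the replicate block, and Ctsz -0.11 in edgeR and -0.060 in DESeq2. Monocyte Ctsc was 0.052 in edgeR and 0.043 in DESeq2. CPM of the library total, an alternative chosen after seeing the data, gave 0.0053 for microglial Ctsl. Leaving out 1 library at a time gave, in astrocytes, -0.55 to 0.13 for Ctsa, -0.99 to 0.050 for Ctsb, -0.33 to 2.28 for Ctsc, -0.38 to 0.31 for Ctsd, -0.89 to 1.59 for Ctsf, -0.995 to 0.19 for Ctsh, -0.60 to 0.31 for Ctss and -0.55 to 0.12 for Ctsz. It gave -2.72 to 0.98 for Ctsf and -0.36 to 0.23 for Ctsz in microglia, and -1.86 to 0.0064 for Ctsb, -1.64 to 0.67 for Ctsc, -1.65 to 0.32 for Ctsl and -0.44 to 0.11 for Ctsz in monocytes. With 1 library left out, the number of cathepsins below 0 ran from 1 to 8 of 9 in astrocytes (1 without shScrmbl replicate 2), from 8 to 9 of 9 in microglia and from 4 to 8 of 8 in monocytes (4 without shXbp1 replicate 1). Under the other alternatives it was 7 or 8 in each cell type, with 7 in microglia under quantile normalization, in CPM and with the replicate block in edgeR. Genes called in astrocytes were 0 in limma, 1 in edgeR and 3 with the replicate block in edgeR, and an unadjusted limma p under 0.05 was found for 35 lower and 263 higher genes. In microglia they were 0 in limma (146 lower and 20 higher at an unadjusted p under 0.05), 6 under quantile normalization, 12 in edgeR, 24 with the replicate block in edgeR, 2 in CPM and 0 to 3 with a library left out (3 without shScrmbl replicate 1). In monocytes the 101 genes called by limma became 0 with a pseudocount of 10, with a filter at a signal of 50, under quantile normalization, in DESeq2 and with the replicate block in edgeR, and 1 in edgeR. With a library left out they ran from 0 to 1163 (0 without either shScrmbl library, 486 without shXbp1 replicate 1). The cause of these shifts was not tested. Libraries with the same number did not deviate together in astrocytes (correlations of -0.0941 to 0.104) or microglia (-0.0144 to 0.0661). The numbers were therefore not taken to pair the libraries. In monocytes the correlation was -0.208 for the same numbers and 0.208 for crossed numbers. With 2 libraries a group these are equal in size by construction, so they cannot decide on pairing. With the replicate block in edgeR microglial Ctsb passed (-1.30, adjusted p = 6.07e-06), as did Psap (-0.85, adjusted p = 0.0159) and H2-Aa (-1.11, adjusted p = 0.00232) of the related genes, and no other cathepsin passed. With the block in limma Ctsb did not pass (-1.33, adjusted p = 0.718). Pairing the monocyte libraries crosswise gave 114 calls. The filter at a signal of 50 left no value for astrocyte Ctsf. Depth limits Ctsf, Ctsc, Ctsh, Ctsl and Xbp1, which had libraries with 3 counts or fewer.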
